A study of Mus musculus with 3 samples.

Results

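The genes described here are the nuclear genes of oxidative phosphorylation, taken as every gene whose symbol begins with Nduf, Uqcr, Cox4 to Cox8 or Atp5. The rule found 90 of the 32285 genes counted and used no measured value. By role these were 37 subunits of complex I (7 of the catalytic core and 30 supernumerary), 8 complex I assembly factors, 8 subunits of complex III and 19 genes of complex IV (11 general subunits and 8 tissue isoforms). A further 17 belonged to complex V (5 of the F1 head, 3 of the c ring and 9 of the stalk and membrane part), and Cox7a2l is a factor for joining complexes III and IV. Complex II, cytochrome c, cytochrome c1 and the subunits encoded in mitochondrial DNA fall outside the rule and are given as context.

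Oxidative phosphorylation makes ATP in the inner mitochondrial membrane. Complexes I, III and IV pass electrons from NADH to oxygen and pump protons, and complex V, the ATP synthase, uses the return of the protons. Most subunits are encoded in the nucleus, while a small set is encoded in mitochondrial DNA, so the 2 genomes supply each of these complexes together. Microglia and monocytes use both respiration and glycolysis, and mature neutrophils are known for few mitochondria and a reliance on glycolysis.

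The cells came from the brains of Apoe knockout mice and were sorted as CD45int CD11b+, a gate set for microglia. All 3 groups were Apoe knockout (APOE-/-) and were taken at day 4: sham mice given PBS, NMOSD mice given a control peptide, and NMOSD mice given the peptide APOE130-149 (sham, control peptide and APOE130-149 below), where NMOSD usually stands for neuromyelitis optica spectrum disorder, an antibody-driven disease of optic nerve and spinal cord. Each group was a pool of 4 mice read as 1 library with a 10x 3′ single-cell kit, and the labels give neither strain, age and sex nor how NMOSD was induced. The control peptide library differs from sham in both the induction and the injected agent, which cannot be told apart.

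The libraries held 4674, 5306 and 2175 barcodes, and 4231, 5011 and 2025 cells with medians of 7124, 7848 and 9991 unique molecular identifiers (UMIs) per cell passed the filter. Levels are given as CPM, the UMIs of a gene per 1000000 UMIs of the summed cells, in the order sham, control peptide, APOE130-149. Apoe itself had 75.9, 100.1 and 114 CPM in microglia, and since the deleted part of the gene is not named, these 3′ tags do not check the genotype. The libraries shared 9, 0 and 3 barcodes in pairs. Cells were assigned to a type by the share of their UMIs in marker lists, which hold no gene described here. The gates took 3343, 4134 and 1643 microglia, 21, 16 and 20 border-associated macrophages (macrophages of the meninges and vessels), 41, 71 and 43 neutrophils and 24, 48 and 25 monocytes in sham, control peptide and APOE130-149. Between 14.52% and 18.96% of cells fell in no gate. Every marker of each type's own list had UMIs in each of its sums. Microglia markers summed to 28280 to 30500 CPM in microglia, 8036 to 8650 in border-associated macrophages, 1011 to 2258 in neutrophils and 1064 to 1365 in monocytes. Monocyte markers summed to 7597, 7785 and 7255 CPM in neutrophils, against 12110, 11340 and 9826 CPM in monocytes. Neutrophil markers summed to 426, 5834 and 597 CPM in monocytes. The part of RNA from other cell types in the values below was not tested.

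In microglia 81 of the 90 genes averaged 10 CPM or more over the 3 libraries, 47 averaged 100 CPM or more, and the 10 highest held 30.9% of the members' UMIs. Cox4i1, a subunit that regulates complex IV, was the highest, at 582, 612 and 567 CPM. Cox8a, a small membrane subunit of the same complex, had 448, 457 and 454 CPM. Uqcrh, which helps cytochrome c dock on complex III, had 357, 374 and 330.3 CPM and Uqcrq, a small subunit of complex III, 153, 164 and 169 CPM. The highest of complex I were Ndufa13 (209, 232 and 209 CPM) and Ndufc2 (190.3, 194 and 183 CPM), and of complex V Atp5e (372, 336 and 347 CPM) and Atp5g2 (329, 365 and 345 CPM). These are levels of 3′ UMIs, and the genes are compared below with themselves in other cells and not with each other.

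The summed level of all 90 genes in microglia was 11403, 11659 and 11415 CPM. Monocytes held 22230, 22298 and 23290 CPM, so the 3 monocyte sums lay above all 3 microglia sums. Border-associated macrophages stood between, at 14221, 13540 and 14396 CPM. Neutrophils stood at 10185, 11284 and 10886 CPM, each below the microglia of its own library. The neutrophil value depends on what the total holds: 16 neutrophil marker genes summed to 401600 to 416300 CPM in neutrophils, and without those genes in the total the neutrophil sums were 17249, 18857 and 18650 CPM against 11406, 11662 and 11419 in microglia.

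The same order held cell by cell. The median microglial cell spent 1.088%, 1.087% and 1.046% of its UMIs on these genes in sham, control peptide and APOE130-149, the median monocyte 2.003%, 2.195% and 2.345% and the median neutrophil 0.826%, 0.924% and 0.912%. In sham the middle 80% of cells ran from 0.758% to 1.71% in microglia and from 1.68% to 2.81% in monocytes, ranges that overlapped slightly. With the control peptide they ran from 0.802% to 1.46% and from 1.59% to 2.77%, and with APOE130-149 from 0.786% to 1.45% and from 1.57% to 2.84%, with no overlap.

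**Figure D1:**
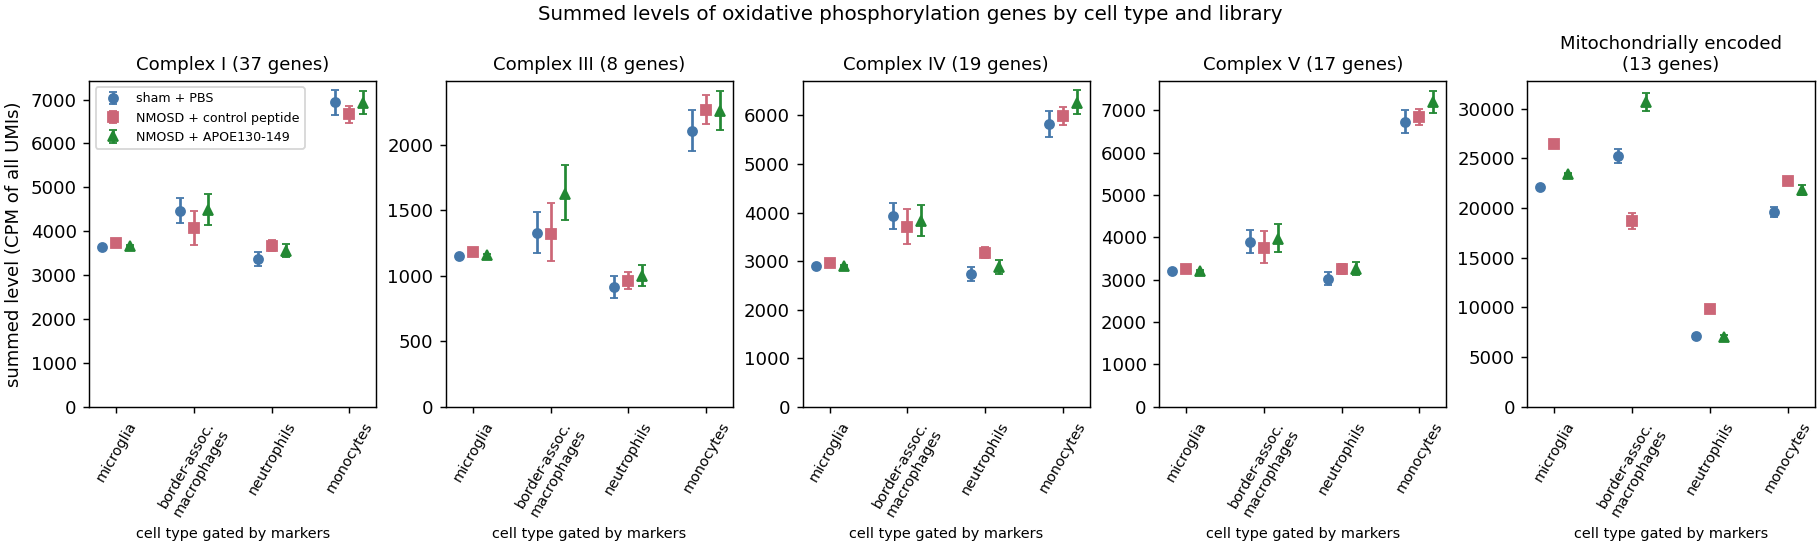
Summed level (y axis, CPM of all UMIs) of the genes of complexes I, III, IV and V and of the 13 mitochondrially encoded genes in each gated cell type (x axis), 1 point per library with its exact 95% Poisson interval, which covers counting error only. Monocytes are highest for each nuclear complex, while neutrophils are lowest for the mitochondrially encoded genes; with the neutrophil marker genes left out of the total, the neutrophil levels of the nuclear complexes would lie above microglia.

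All 4 complexes were higher in monocytes than in microglia. As the geometric mean of the ratio in the 3 libraries, complex I was 1.86 times, complex III 1.90 times, complex IV 2.07 times and complex V 2.15 times the microglial level. Cell types were compared with edgeR's quasi-likelihood test on UMI sums, with TMM scaling, the library as a block and p-values adjusted by Benjamini-Hochberg over 8196 genes. The 3 libraries served as replicates although they differ in treatment, so the p-values measure the spread between these 3 pools. Of the 90 genes, 78 had enough counts to be tested, and the other 12 were the 8 tissue isoforms of complex IV and the assembly factors Ndufaf1, Ndufaf2, Ndufaf5 and Ndufaf6. In monocytes 71 of the 78 rose and 0 fell, where 28.2% of all genes tested rose and 32.1% fell. The count of 0 was also 0 at an unadjusted p under 0.05 and with DESeq2, which called 25.3% of all genes lower. The median log2 fold change was 1.07 for the 78 genes and -0.10 for all genes tested. Genes with short transcripts stood higher in monocytes in general. With a principal annotated transcript under 500 bases, the median was 1.27 for members and 0.97 for other genes. At 500 to 750 bases these medians were 1.09 and 0.84, at 750 to 1500 bases 0.88 and 0.48, and at 1500 to 3000 bases 0.94 and -0.04. The part of length in the rise was not tested.

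The monocyte rise took in 33 of 37 complex I subunits and each tested subunit of complex III (8), complex IV (11) and complex V (17). Ndufb1-ps (ENSMUSG00000113902, chr12:101968090-101977068 on GRCm38, minus strand), listed under a pseudogene-style symbol and counted with the supernumerary subunits of complex I, stood at 669, 493 and 542 CPM in monocytes against 168, 117 and 147 CPM in microglia. Its log2 fold change of 2.09 (SE 0.15, edgeR adjusted p 6.18e-14) was the highest of the 78, and its model overlaps Cpsf2, whose reads cannot be told apart from its own without the strand. Cox5b and Cox5a are nuclear subunits that build complex IV around its mitochondrially encoded centre. Cox5b stood at 423, 573 and 555 CPM in monocytes against 154, 174 and 170.0 CPM in microglia, a log2 fold change of 1.74 (SE 0.14, edgeR adjusted p 2.78e-12). Cox5a stood at 335, 370 and 352 CPM against 117, 132 and 111 CPM (log2 1.65). Both genes were high in all 3 monocyte sums, with no overlap.

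Atp5h (ENSMUSG00000034566, chr11:115415689-115419962, minus strand), subunit d of the ATP synthase's outer stalk, stood at 557, 699 and 671 CPM in monocytes against 204, 232 and 211 CPM in microglia, a log2 fold change of 1.68 (SE 0.14, edgeR adjusted p 1e-11). Atp5md, a small membrane subunit that helps pair ATP synthases, stood at 332, 236 and 272 CPM against 114, 78.8 and 94.8 CPM (log2 1.66), also without overlap. Over all 78 genes, 70 had all 3 monocyte sums above all 3 microglia sums. Of all 8196 genes tested, 2248 had them all above and 3423 all below. Of the genes highest in microglia, Cox4i1 had 1001, 965 and 968 CPM in monocytes (log2 0.84), Uqcrh 602, 566 and 597 CPM (log2 0.83) and Ndufa13 325, 328 and 369 CPM (log2 0.75), while Cox8a (1.09) and Uqcrq (1.45) lay above the median. Cytosolic ribosomal protein genes rose too, 80 of 89 of them with a median log2 fold change of 1.01. The ratio of the 90 genes to ribosomal protein genes was 0.111, 0.114 and 0.114 in monocytes and 0.104, 0.108 and 0.113 in microglia. Whether the 2 rises share a source was not tested.

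The 7 tested genes that did not pass in monocytes were Ndufs1 and Ndufs3 of the complex I core, the supernumerary Ndufa9 and Ndufc2, and the assembly factors Ndufaf3, Ndufaf4 and Ndufaf7. Ndufs1, the largest core subunit and a carrier of iron-sulphur clusters, stood at 27.4, 22.9 and 29.7 CPM in monocytes against 37.6, 32.5 and 36.9 CPM in microglia (log2 -0.33, SE 0.26, edgeR adjusted p 0.281). Among the other core genes, Ndufv1 (log2 1.11), Ndufv2 (1.30), Ndufs7 (0.81) and Ndufs8 (0.98) passed the threshold. Only 1 of the 4 tested assembly factors rose, Ndufaf8, from 37.8, 41.4 and 40.9 CPM in microglia to 51.7, 71.6 and 84.2 CPM in monocytes (log2 0.88, edgeR adjusted p 0.000598).

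Outside the 90 genes, the mobile electron carrier moved further than any complex. Cycs, cytochrome c, stood at 265, 352 and 322 CPM in monocytes against 62.9, 70.8 and 64.9 CPM in microglia (log2 2.34, edgeR adjusted p 1.15e-14), and Cyc1, the cytochrome c1 of complex III, had a log2 fold change of 0.72. In complex II, Sdhb (0.999) and Sdhd (0.98) rose, while Sdha (-0.03) and Sdhc (0.14) did not pass. Of the 13 mitochondrially encoded genes, 0 rose and 3 fell with TMM, mt-Nd2, mt-Nd3 and mt-Cytb, with a median of -0.34. By library size 0 rose and 7 fell, and with DESeq2 size factors 2 rose and 3 fell. Of 21 tested assembly factors of the respiratory complexes that the rule does not name, 9 rose and 1 fell. Of 8 tested regulators of these genes, such as Nrf1, Gabpa and Tfam, 0 passed in either direction.

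Promoters are shown as background, since NRF1 and GABPA, an ETS factor, are the factors best known for binding promoters of respiratory genes. Promoter windows in RefSeq on GRCm38.p6, 250 bases before the start, were found for 72 of the 90 genes. The NRF1 core, searched as GCGCANGCG on both strands, was in 16.67% of the 72 and in 5.328% of all 27025 promoters. The ETS core, searched as CCGGAAG on both strands, was in 16.67% against 7.071%. The GC box GGGCGG was in 38.89% against 32.96%, CCAAT in 44.44% against 34.53%, and AAGATGGC, the core of YY1, in 0 against 1.58%. The members' windows also held more G and C, with a median of 56.2% against 52%. A match here is a description of letters, not a bound site. The following 80-base stretches carry a match in capitals, of the NRF1 core in Atp5h, Ndufs5 and Ndufaf4 and of the ETS core in Atp5e and Uqcr11, each written 5′ to 3′ on the gene's own strand, with a match in the reverse direction read as its reverse complement. Of the genes shown, Atp5h, Ndufs5, Atp5e and Uqcr11 rose in monocytes and Ndufaf4 did not, where 71 of the 78 members tested rose. Whether a match goes with the monocyte rise was not tested.
Atp5h, minus strand, chr11:115419981-115420060: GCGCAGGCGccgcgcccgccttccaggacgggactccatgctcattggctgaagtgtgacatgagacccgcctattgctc
Ndufs5, minus strand, chr4:123718205-123718284: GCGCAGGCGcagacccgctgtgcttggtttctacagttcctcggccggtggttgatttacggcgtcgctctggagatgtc
Ndufaf4, plus strand, chr4:24897971-24898050: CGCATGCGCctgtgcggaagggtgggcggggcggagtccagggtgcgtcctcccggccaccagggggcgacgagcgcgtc
Atp5e, minus strand, chr2:174464124-174464203: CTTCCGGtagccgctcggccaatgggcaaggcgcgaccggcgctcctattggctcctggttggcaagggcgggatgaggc
Uqcr11, minus strand, chr10:80406831-80406910: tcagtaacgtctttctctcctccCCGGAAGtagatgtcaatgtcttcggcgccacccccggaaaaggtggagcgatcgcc

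The direction of the neutrophil difference depended on the scaling. With TMM scaling 52 of the 78 tested genes were higher in neutrophils and 7 lower, with a median log2 fold change of 0.57, but scaled by library size alone 17 were higher and 32 lower, with a median of -0.26. Over all genes tested, 27.5% were higher and 35.7% lower with TMM and 15.6% were higher and 64% lower by library size, and the median was -0.22 with TMM and -1.04 by library size. By library size, the share of members that was lower therefore lay below that of all genes. For the 78 tested members, a direction in neutrophils is therefore given below only where it passed the same way under both scalings, and otherwise both values are given. There were 17 such genes higher and 7 lower, while 6 (Atp5c1, Atp5d, Ndufa2, Ndufb4, Ndufb8 and Uqcrh) were higher with TMM and lower by library size. The shares of all genes under this joint rule were not counted, so these counts have no background beside them. Each of the 52 genes higher with TMM was also among the 71 higher in monocytes. With 71 of the 78 higher there, most of any 52 would be among them, and both comparisons share the microglia sums.

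The 17 genes higher in neutrophils under both scalings were mostly accessory subunits, as were most of the 78 genes tested. They held 7 supernumerary subunits of complex I (Ndufa1, Ndufa3, Ndufb1-ps, Ndufb7, Ndufb11, Ndufs4 and Ndufv3), Uqcr10 of complex III, Cox5a, Cox5b and Cox7a2 of complex IV, and Atp5f1, Atp5h, Atp5j, Atp5k, Atp5l and Atp5md of the stalk and membrane part of complex V. None was a core subunit of complex I, an F1 head or a c ring gene, groups with only 7, 5 and 3 of the genes tested. Ndufb7 (ENSMUSG00000033938, chr8:83566671-83571626 on GRCm38, plus strand), a supernumerary subunit on the intermembrane side of complex I, stood at 267, 286 and 242 CPM in neutrophils against 110.1, 112 and 108 CPM in microglia. Its log2 fold change was 2.07 (SE 0.14, edgeR adjusted p 2.71e-14) with TMM and 1.25 by library size. Ndufa3, a small membrane subunit of complex I whose model overlaps Tfpt, stood at 182, 168 and 218 CPM against 123, 90.1 and 116 CPM (log2 1.61 and 0.79). Cox5a stood at 166, 268 and 185 CPM against 117, 132 and 111 CPM (log2 1.58 and 0.76). All 3 genes had each neutrophil sum above every microglia sum. Ndufb1-ps (1.79) and Ndufv3 (1.58), the other genes among the 5 with the highest change, did too. Of all 8196 genes tested, 1339 had each neutrophil sum above every microglia sum in CPM.

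The 7 genes lower in neutrophils under both scalings were Ndufaf4, Ndufaf7, Ndufs3, Ndufa9, Ndufc2, Atp5g2 and Cox7a2l. Ndufaf4, an assembly factor for the arm of complex I that faces the matrix, had the furthest fall. It stood at 0, 7.59 and 3.46 CPM in neutrophils against 36.1, 33.0 and 31.6 CPM in microglia, a log2 fold change of -2.13 (SE 0.44, edgeR adjusted p 0.000105). The 0 of the sham library allows up to 5.94 CPM at 3 counts. Ndufs3, a core subunit of the matrix arm, stood at 15.8, 22.8 and 20.8 CPM against 72.4, 82.9 and 72.5 CPM (log2 -1.13, SE 0.23, edgeR adjusted p 5.75e-05), and its model overlaps Kbtbd4. Ndufa9, which sits where the matrix arm meets the membrane, stood at 13.9, 13.01 and 32.9 CPM against 66.7, 70.2 and 66.9 CPM (log2 -1.04). The fall of Ndufa9 rests on the control peptide library: without that library it was -0.65 (adjusted p 0.128).

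Ndufc2, a membrane-arm subunit of complex I, stood at 57.4, 54.2 and 86.6 CPM in neutrophils against 190.3, 194 and 183 CPM in microglia (log2 -0.73, edgeR adjusted p 0.000458). Ndufaf7, a methyltransferase that modifies a core subunit of complex I during assembly, stood at 7.92, 16.3 and 13.9 CPM against 39.2, 38.7 and 39.9 CPM (log2 -0.76, edgeR adjusted p 0.0237). Its call was lost without the sham library (-0.55, adjusted p 0.146) and without the APOE130-149 library (-0.79, adjusted p 0.0624), and with DESeq2 (-0.59, adjusted p 0.135). All 5 of these genes had each neutrophil sum below every microglia sum in CPM, as did 5512 of all 8196 genes tested. None of the 5 passed in monocytes in either direction.

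**Figure D2:**
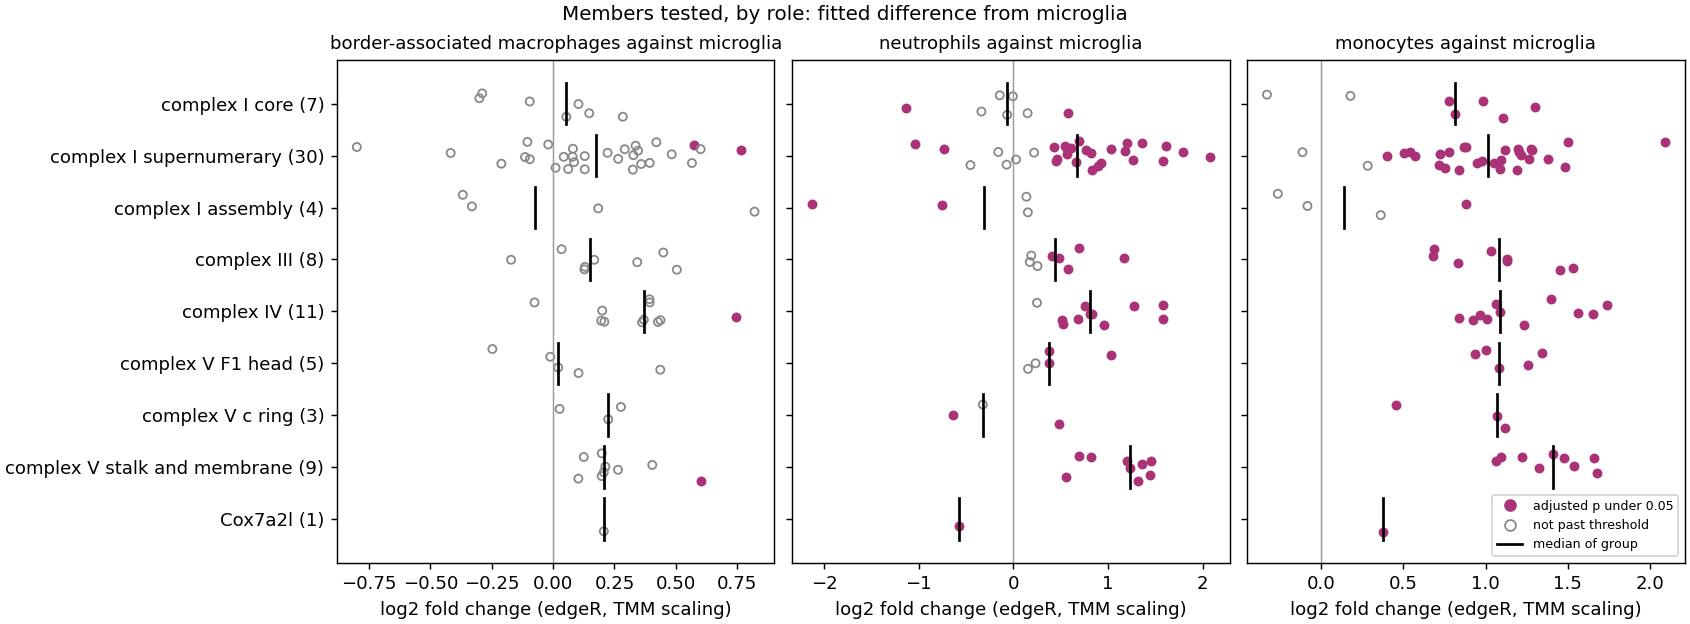
Fitted log2 fold change over microglia (x axis, edgeR with TMM scaling) of each of the 78 tested genes, grouped by role (y axis, number tested in brackets), in border-associated macrophages, neutrophils and monocytes; filled points had an adjusted p under 0.05 and black bars are group medians. In neutrophils the bar of the complex I core lies at -0.07 and that of the supernumerary subunits at 0.68, and scaling by library size alone moves the neutrophil points left, turning the median of the set from 0.57 to -0.26.

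Ratios inside 1 sum of cells do not depend on scaling. The 7 core subunits of complex I summed to 0.0739, 0.0821 and 0.0681 of the 30 supernumerary subunits in sham, control peptide and APOE130-149 neutrophils, and to 0.135, 0.151 and 0.147 in microglia. Monocytes stood at 0.112, 0.132 and 0.126 and border-associated macrophages at 0.119, 0.130 and 0.126. The 3 neutrophil values were the lowest of the 12, and none of their 95% counting intervals (the highest bound was 0.0932) reached those of another cell type. Complex I assembly factors stood at 0.0123, 0.0260 and 0.0175 of the complex I subunits in neutrophils and at 0.0485, 0.0484 and 0.0486 in microglia. Core genes have principal transcripts of 758 to 2590 bases and supernumerary ones of 315 to 2020. Across 77 members the neutrophil log2 fold change with TMM had a Pearson's r of -0.46 with log2 length, against -0.07 across other genes. The part of length in these ratios was not tested.

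Within complex V, the 3 c ring genes stood at 0.107, 0.159 and 0.145 of the 9 stalk and membrane genes in neutrophils, at 0.244, 0.251 and 0.246 in monocytes and at 0.353, 0.403 and 0.389 in microglia. The ring is the rotor that protons turn, and the stalk holds the head in place. These 3 ranges did not overlap, and border-associated macrophages, at 0.357, 0.379 and 0.342, lay beside microglia.

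The nuclear genes also stood apart from the mitochondrially encoded ones. The 90 genes summed to 0.515, 0.441 and 0.486 of the 13 mitochondrially encoded genes in microglia, to 1.14, 0.982 and 1.07 in monocytes and to 1.44, 1.15 and 1.56 in neutrophils. All 3 monocyte and all 3 neutrophil ratios lay above the microglia ratios. The border-associated macrophages, at 0.564, 0.724 and 0.470, overlapped microglia. In neutrophils 10 of the 13 mitochondrially encoded genes were lower with TMM and 13 by library size, and 0 were higher under either, with mt-Nd1 at 265, 478 and 346 CPM against 1467, 2306 and 2130 CPM in microglia (log2 -1.63, edgeR adjusted p 5.7e-07). Cells with over 10% mitochondrial UMIs had been left out, which bounds this measure in every type.

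**Figure D3:**
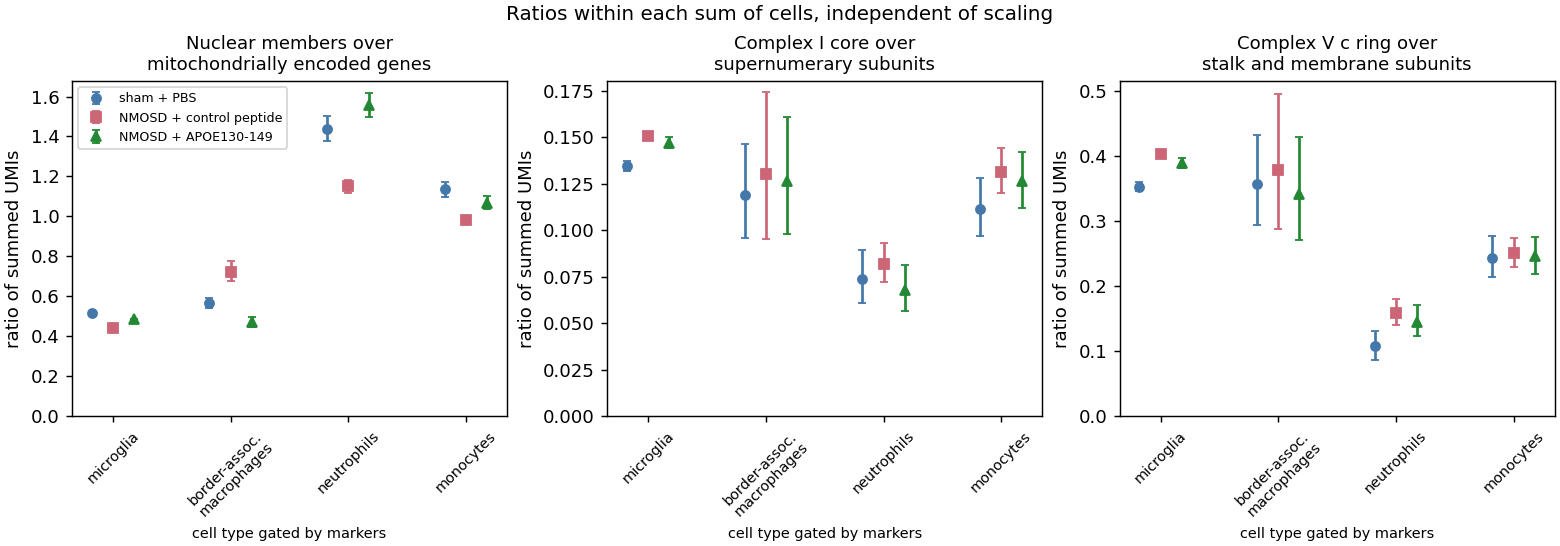
Ratios of summed UMIs (y axes) in each gated cell type (x axis) and library: the 90 nuclear genes over the mitochondrially encoded genes, complex I core over supernumerary subunits, and complex V c ring over stalk and membrane genes, with exact 95% intervals that cover counting error only. Neutrophils are highest in the first panel and lowest in the others, in each of the 3 libraries.

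Glycolysis genes summed to 0.418, 0.350 and 0.387 of the 90 genes in neutrophils, against 0.174, 0.185 and 0.191 in microglia and 0.165, 0.168 and 0.172 in monocytes. Of 13 tested glycolysis genes, 11 were higher in neutrophils and 2 lower with TMM, against 10 and 3 by library size, and 10 were higher in monocytes and 2 lower under both. Of 8 regulators tested in neutrophils, 1 (Yy1) was higher and 3 (Pprc1, Tfam and Tfb2m) were lower with TMM, while by library size 0 were higher and 6 lower. Among all genes tested 27.5% were higher and 35.7% lower with TMM, and 15.6% and 64% by library size. The shares of regulators that were lower were near these. Tfam, which packages and transcribes mitochondrial DNA, stood at 3.96, 3.25 and 5.19 CPM in neutrophils against 26.7, 22.8 and 25.3 CPM in microglia (log2 -1.82, edgeR adjusted p 0.00111). In these neutrophil sums 3 counts equal 5.94, 3.25 and 5.19 CPM, so Tfam lay at or under that floor in each library.

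Isoform shares gave a further contrast that no scaling touches. Cox7a2 is a subunit of complex IV, and its relative Cox7a2l (ENSMUSG00000024248, chr17:83501918-83517330, minus strand), also named SCAF1, takes its place when complex IV joins complex III. Cox7a2l made up 66.3%, 66.4% and 65.0% of the summed UMIs of Cox7a1, Cox7a2 and Cox7a2l in sham, control peptide and APOE130-149 microglia, but 29.7%, 29.3% and 31.7% in neutrophils. Monocytes stood at 53.7%, 47.8% and 53.2%, and border-associated macrophages at 62.8%, 73.3% and 56.3%, with wide intervals such as 45.3% to 66.9% for the last value. The neutrophil shares lay below those of each other type.

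The neutrophil share came from both genes. Cox7a2l stood at 113, 128 and 135 CPM in neutrophils against 337, 347 and 302 CPM in microglia (log2 -0.58, SE 0.16, edgeR adjusted p 0.00231), and Cox7a2 at 267, 308 and 289 CPM against 171, 175 and 162 CPM (log2 1.58, SE 0.16, edgeR adjusted p 1.77e-10). In monocytes Cox7a2l stood at 468, 342 and 391 CPM, a log2 fold change of 0.38 (edgeR adjusted p 0.0316) with overlapping sums. With the neutrophil markers left out and no TMM factor it was 0.26 (adjusted p 0.126). Cox7a2 in monocytes had a log2 fold change of 1.24.

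The c subunit of the ATP synthase ring is made from Atp5g1, Atp5g2 or Atp5g3, which differ in their targeting sequences and give the same mature protein. Atp5g2 made up 59.997%, 60.7% and 59.4% of their UMIs in microglia, 53.4%, 49.6% and 44.1% in monocytes and 50.5%, 50% and 42.8% in neutrophils. Each monocyte and neutrophil share lay below the 3 microglia shares, and they overlapped one another. In neutrophils Atp5g2 (ENSMUSG00000062683, chr15:102662864-102672352, minus strand) stood at 105, 154 and 123 CPM against 329, 365 and 345 CPM in microglia (log2 -0.64, SE 0.15, edgeR adjusted p 0.000557), lower under both scalings. The other c ring genes passed under only 1 scaling each: Atp5g1 had an edgeR log2 fold change of -0.32 (adjusted p 0.114) with TMM and -1.14 (adjusted p 8.98e-07) by library size, and Atp5g3 one of 0.49 (adjusted p 0.0134) with TMM and -0.34 (adjusted p 0.0584) by library size.

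Cox6a2 (ENSMUSG00000030785, chr7:128205435-128206387, minus strand), an isoform of complex IV best known from heart and skeletal muscle, was found in microglia and almost nowhere else. It made up 6.95%, 7.34% and 8.58% of the UMIs of Cox6a1 and Cox6a2 in sham, control peptide and APOE130-149 microglia, at 13.1, 14.6 and 18.2 CPM. A UMI of it was seen in 7.78%, 11.7% and 15.2% of microglia, whose median depths were 7805, 7859.5 and 10096 UMIs. Over the 3 libraries it had 1528 UMIs in microglia, 1 in neutrophils, 2 in monocytes and 0 in border-associated macrophages. The pooled microglial level was 30.3 times the neutrophil level (95% interval 5.42 to 1196) and 10.8 times the monocyte level (2.98 to 89.2). Against border-associated macrophages it was 2.36 times the level that 3 counts over the 3 libraries would give, and the 95% lower bound of the ratio was 1.92. The share of cells with a UMI was 0%, 1.41% and 0% in neutrophils and 0%, 0% and 8% in monocytes, whose median depths were 10249 to 11627 and 13256 to 16550 UMIs, above microglia in each library. Border-associated macrophages were shallower, at 6588.5 to 7641.5 UMIs.

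Cox6a2 was too low for the filter on counts. With no filter and TMM scaling, the edgeR adjusted p was 6.44e-05 for neutrophils, 0.000105 for monocytes and 0.00992 for border-associated macrophages. No fit without the filter was run by library size. Its model overlaps Itgad, which had 19 UMIs in all microglia. The 0.25% of microglia with the most UMIs of Cox6a2 held 13.4%, 9.80% and 12.9% of them, against 3.94%, 3.43% and 3.33% for Cox6a1, so its UMIs were less evenly spread over cells, at a lower level.

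The other tissue isoforms were close to the floor. Cox4i2 had 33 UMIs in all microglia, Cox7a1 86, Ndufa4l2 3, Cox7b2 and Cox8b 1 each, and Cox8c 0 in every sum. Cox6b2, known from testis, went the other way to Cox6a2: it stood at 3.11 CPM in pooled microglia, 7.48 in neutrophils (15 UMIs) and 9.78 in monocytes (14 UMIs). With no filter on counts and TMM scaling, its log2 fold change was 2.01 in neutrophils (edgeR adjusted p 0.00437) and 1.68 in monocytes (adjusted p 0.0257). The neutrophil value was not fitted by library size, so its dependence on scaling is not known.

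**Figure D4:**
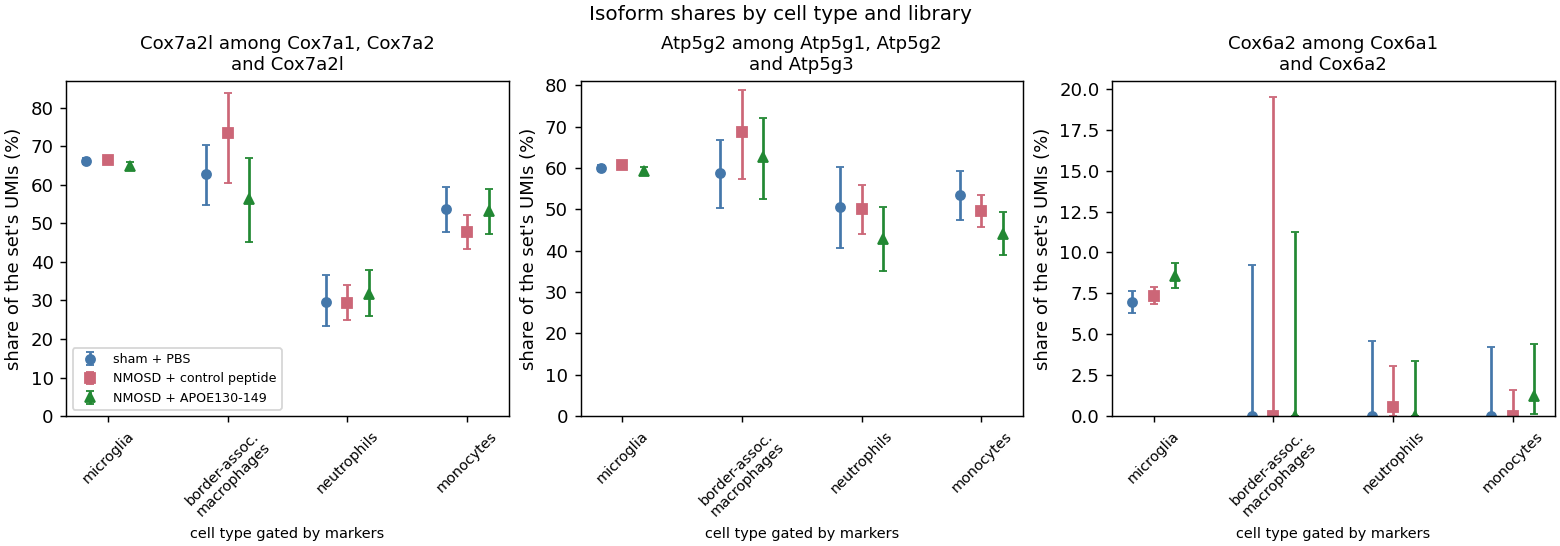
Share (y axes, percent of the set's UMIs) of Cox7a2l among the Cox7a genes, of Atp5g2 among the c ring genes and of Cox6a2 among the Cox6a genes in each gated cell type (x axis) and library, with exact 95% binomial intervals. Cox7a2l is lowest in neutrophils, Atp5g2 is highest in microglia and border-associated macrophages, and Cox6a2 is above 6% in microglia and under 2% in each other sum.

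In border-associated macrophages the summed level was 1.22 times that of microglia as a geometric mean, higher in 3 of 3 libraries. In the fit 4 of the 78 genes rose and 0 fell, where 7.28% of all genes tested rose and 8.61% fell, so with TMM the share of members that rose was near that background. By library size 12 of the 78 rose, where 8.33% of all genes did, a share above the background. The median log2 fold change was 0.20 against -0.12 for all genes. With principal transcripts under 500 bases it was 0.20 for members and 0.21 for other genes, and at 500 to 750 bases 0.34 and 0.17. At an unadjusted p under 0.05, 19 were higher and 1, Ndufa9, was lower, and DESeq2 called 16 higher and 0 lower, where it called 10.3% of all genes higher and 4.83% lower. The 4 genes were Ndufa5 and Ndufa7 of the supernumerary subunits, Cox5a and Atp5h. Cox5a stood at 174, 202 and 258 CPM against 117, 132 and 111 CPM in microglia (log2 0.74, SE 0.19, edgeR adjusted p 0.00503), and Atp5h at 338, 376 and 319 CPM against 204, 232 and 211 CPM (log2 0.60, SE 0.17, edgeR adjusted p 0.00964). Both had sums that did not overlap. Of all 8196 genes tested, 1328 had all 3 sums of border-associated macrophages above those of microglia and 1837 all below.

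Each of the 4 calls was lost when 1 library was left out. Cox5a was lost without the APOE130-149 library (log2 0.52, adjusted p 0.185) and Atp5h without the sham library (0.55, adjusted p 0.0992). Ndufa5 was lost without the sham library (0.83, adjusted p 0.142) or the control peptide library (0.55, adjusted p 0.300), and Ndufa7 without the sham (0.56, adjusted p 0.150) or the APOE130-149 library (0.52, adjusted p 0.142). These sums rest on 16 to 21 cells each.

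Between the libraries, the summed microglial level of these genes was between 0.979 and 1.022 times that of the library it was compared with. With 1 library per group no test was possible, and the intervals given are exact conditional 95% intervals for counting error only. Of the 81, 80 and 81 members at 10 CPM or more in either library of a comparison, 0 differed 1.5-fold. Among all genes at that level, 1.5% were 1.5-fold higher and 0.955% lower with the control peptide than in sham, 0.43% and 0.107% with APOE130-149 than with the control peptide, and 1.72% and 0.906% with APOE130-149 than in sham. The summed level was 1.022 times sham with the control peptide (interval 1.018 to 1.027), 0.979 times the control peptide with APOE130-149 (0.975 to 0.984) and 1.001 times sham with APOE130-149 (0.996 to 1.006).

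The small differences leaned up in the control peptide library against sham, down in APOE130-149 against the control peptide, and neither way clearly in APOE130-149 against sham. The counting intervals lay above 1 for 39 members and below 1 for 20 in the first of these, for 16 and 28 in the next and for 23 and 20 in the last. Such intervals were not counted over all genes, so these counts do not set the members apart from other genes. The ratio of control peptide to sham was above 1 for 54 of 81 members (35.4% of all genes), with a median log2 ratio of 0.07 against -0.08 for all genes. The ratio of APOE130-149 to the control peptide was above 1 for 27 of 80 (54.7% of all genes), with a median of -0.04 against 0.02. The ratio of APOE130-149 to sham was above 1 for 45 of 81 (38.6% of all genes), with a median of 0.02 against -0.05. The first and the last of these medians changed sign, to -0.02 and -0.08, when each cell was weighted alike rather than by its UMIs. Markers of other cells also differed between the microglia sums: those of choroid plexus had 0.844, 81.7 and 61.8 CPM and those of erythrocytes 0.457, 29.5 and 8.93 CPM, and their part in these ratios was not tested. The 3 comparisons share libraries, so they are not independent of each other.

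The summed core of complex I had 433, 488 and 471 CPM, so the control peptide library was 1.13 times sham (interval 1.10 to 1.15) and the APOE130-149 library 1.09 times (1.06 to 1.12). The 30 supernumerary subunits were at 1.01 (0.998 to 1.01) and 0.995 (0.986 to 1.005). Of the 7 core genes, 6 were higher with the control peptide than in sham, with Ndufs7, an iron-sulphur subunit next to the ubiquinone site, at 101 against 84.3 CPM (1.19 times, 1.14 to 1.25). Ndufs1 went the other way, from 37.6 to 32.5 CPM (0.865 times, 0.7996 to 0.936). The other members furthest above 1 were Atp5c1, the central shaft of the ATP synthase (1.21 times), Ndufb8 (1.21), Ndufb9 (1.21) and Uqcrc2 (1.21), a core protein of complex III.

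The members furthest below 1 with the control peptide were Atp5k, Atp5md, Ndufb1-ps, Ndufa3 and Atp5mpl. Atp5k, subunit e of the ATP synthase, had 108, 72.5 and 91.9 CPM, a ratio of 0.675 (0.643 to 0.708) for control peptide to sham. Atp5md stood at 114, 78.8 and 94.8 CPM, Ndufb1-ps at 168, 117 and 147 CPM and Ndufa3 at 123, 90.1 and 116 CPM. Atp5mpl was at 0.791 times sham. In each of the first 4 genes the control peptide library was the lowest and sham the highest. The same 4 genes, with Cox6a2, had the highest ratios of APOE130-149 to the control peptide, from 1.204 for Atp5md to 1.29 for Ndufa3. Both ratios share the control peptide library, so its low values for the 4 genes raise the second ratio by themselves.

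Transcript length went with these ratios, and the principal transcripts of Atp5k, Atp5md, Atp5mpl and Ndufa3 have 371, 352, 366 and 515 bases, while Ndufb1-ps has no such length and is left out here. Members with a principal transcript under 500 bases had a median log2 ratio of control peptide to sham of -0.09 (13 genes), and the 70 other genes of that length had the same median, -0.09. Members of 500 to 750 bases stood at 0.04 (29 genes) against 0.08 for other genes, those of 750 to 1500 bases at 0.14 (24 genes) against 0.07, and those of 1500 to 3000 bases at 0.18 (13 genes) against -0.04. Across the 80 members with a length, Pearson's r of the log2 ratio with log2 length was 0.37 and Spearman's rho 0.40, and across 8156 other genes they were -0.28 and -0.43. These are correlations across genes, which share the 2 libraries and are not independent replicates. For APOE130-149 against the control peptide the members' r was -0.26. The part of length in the differences was not tested further.

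**Figure D5:**
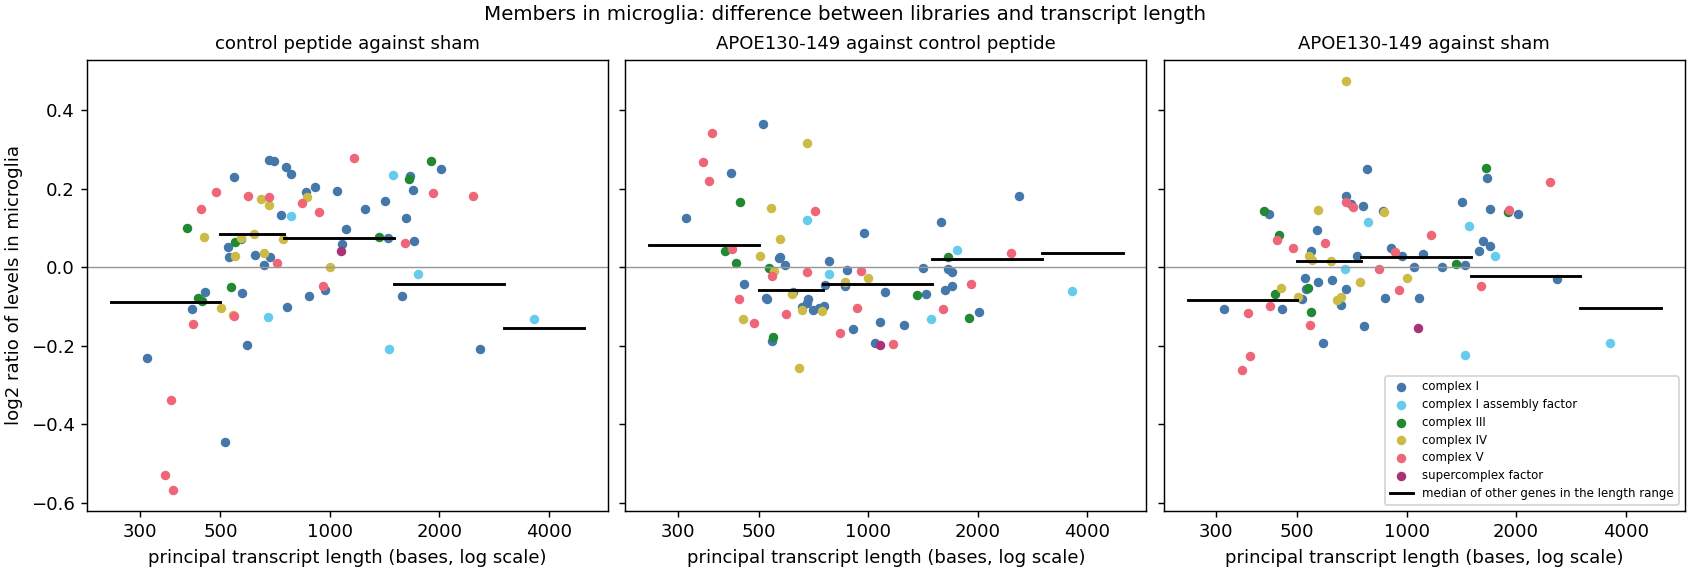
Log2 ratio of microglial levels (y axis) against principal transcript length in bases (x axis, log scale) for each member at 10 CPM or more, coloured by complex, in the 3 comparisons of libraries; black bars are the medians of all other genes in the same length range. With the control peptide the lowest plotted members against sham, Atp5k, Atp5md, Ndufa3 and Atp5mpl, have transcripts of 352 to 515 bases (Ndufb1-ps has no length and is not plotted), and the bar for other genes under 500 bases lies at -0.09.

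With APOE130-149 the genes furthest below the control peptide were Cox5a (0.837 times), Cox7a2l (0.872), Atp5c1 (0.873), Ndufs3 (0.874) and Ndufa11 (0.878), a membrane-arm subunit of complex I. Against sham, Cox6a2 was the member furthest up, at 18.2 against 13.1 CPM (1.39 times, 1.21 to 1.598). Uqcrc1, the other core protein of complex III (1.19), the core subunits Ndufs8 (1.19) and Ndufv1 (1.17) and Atp5a1, the alpha subunit of the F1 head (1.16), followed. The furthest down were Atp5md (0.835), Atp5k (0.855), the assembly factor Ndufaf1 (0.857, 0.722 to 1.02), Ndufa6 and Ndufaf4 (both 0.875).

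Among related lists in microglia, the mitochondrially encoded genes moved further than the nuclear ones. They summed to 22123, 26427 and 23469 CPM, a ratio of 1.19 for control peptide to sham where the nuclear genes stood at 1.02. Ribosomal protein genes were at 0.989, and glycolysis genes at 1.09. All 8 regulators at 10 CPM or more were lower with the control peptide than in sham, with a median log2 ratio of -0.15. Most genes at that level were lower too: 35.4% had a ratio above 1, and the median over all genes was -0.08.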

How the data were processed

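The deposited matrices held raw UMI counts of each gene in each barcode, without normalization, per the file headers and the values. Cell Ranger 5.0.1, Seurat 4.3.0 and mm10 are named in the submitters' processing notes, while per the file headers cellranger 7.0.1 made the matrices. How strand and introns were counted is not stated there. Reads of genes that overlap another counted gene (30 of the 90) or have near-identical copies are uncertain.

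Barcodes with 500 or more genes and mitochondrial UMIs of 10% or less were kept as cells and gated by the share of UMIs in marker lists. The share was at least 1.5% for microglia, 10% for neutrophils and 0.2% for monocytes and border-associated macrophages. Upper limits were set on the other lists, except that the neutrophil gate had none on the monocyte list. At least 3 markers of the type were required. These thresholds were set after the marker levels were seen. Doublets were not called.

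Counts were summed per library and type. Types were compared with edgeR 4.0.16 (R 4.3.3; filterByExpr, TMM, library as a block, adjusted p under 0.05) in 1 fit of 12 sums, with DESeq2 1.42.0 as an alternative. In a simulation of the 12 sums, 200 of 8196 genes were changed in neutrophils. Of these, 100% of 4-fold and 80.41% of 2-fold changes were recovered, and 0.04068% of unchanged genes were called. All simulated sums shared 1 set of means, with no difference between libraries and no neutrophil markers filling the total. The simulation therefore cannot speak for neutrophil calls that depend on the scaling. Libraries were compared by exact intervals only. Python 3.11.15, scipy 1.17.1, pandas 2.3.3 and matplotlib 3.10.9 did the rest.

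The members and lists were chosen with earlier results of these data known. Named were the 5 highest and 5 lowest members by change past the threshold in each cell type comparison, the 5 highest and 5 lowest ratios between libraries at 10 CPM or more, the 2 highest levels per complex and the isoform sets. Other members were named after their values were seen.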

Additional observations from a re-analysis of the deposited data

How the results depend on the processing

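Members higher in monocytes numbered 67 to 72 under every alternative run, against 71. The other counts moved more, and the cause was not tested. Library size without neutrophil marker genes was added after seeing the data, as were all alternatives for the summed levels. Against 4 members higher in border-associated macrophages, DESeq2 size factors gave 14, library size only 12, DESeq2's Wald test 16, no filter on low counts 1, a doubled gate threshold 15, removal of cells above 2 times the median UMIs 10, library size without neutrophil marker genes 12, and leaving out 1 library 2 to 4. Against 0 lower in border-associated macrophages and in monocytes, fits with no filter and with only the 2 cell types compared gave 1 each. In neutrophils library size only turned 52 higher and 7 lower into 17 and 32, and leaving out 1 library gave 42 to 48 and 6 to 7. Between the groups, no paired analysis was possible because each group is 1 library. The cell type fits pair the sums of a library through the block, and without it the counts were 50 higher and 8 lower in neutrophils and 71 higher in monocytes.

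The mean log2 ratio of summed levels over microglia was 0.29 in border-associated macrophages (0.46 with the gate doubled, 0.37 without high-UMI cells), 0.98 in monocytes (1.11 with the gate doubled) and -0.09 in neutrophils (0.011 with the gate doubled, -0.21 without high-UMI cells, 0.67 without neutrophil markers in the total). The median log2 ratio of control peptide to sham, 0.07, was 0.15 with median-of-ratios factors, -0.020 as a mean over cells, 0.084 with the gate doubled, 0.11 over all filtered cells and 0.050 without high-UMI cells. That of APOE130-149 to the control peptide, -0.04, was -0.078 with median-of-ratios factors, -0.060 scaled without mitochondrially encoded and ribosomal protein genes, -0.036 as a mean over cells, -0.069 over all filtered cells and -0.0097 without high-UMI cells. That of APOE130-149 to sham, 0.02, was 0.064, 0.0046, -0.079 and 0.0325 under the same 4, 0.025 with the stricter cell filter, 0.032 with the gate doubled and 0.033 without high-UMI cells. Ndufaf1, at -0.22 for APOE130-149 against sham, turned to 0.048 with the gate doubled. Of the named genes' values under alternatives, 495 kept direction, and the call where there was one, 16 lost the call and 1 reversed. Among the 495 were ratios between libraries, which had no call to keep. These numbered 90 for control peptide to sham, 89 for APOE130-149 to control peptide and 85 for APOE130-149 to sham. With 240 UMIs, Ndufaf1 had the fewest counts among members named between libraries.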
